A study of Mus musculus with 4 samples.

Results

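Glycolytic enzymes are the set of 10 genes Gpi1, Pfkm, Aldoa, Tpi1, Gapdh, Pgk1, Pgam2, Eno3, Pkm and Ldha, taken here from a table of transcript start sites in mouse muscle as all rows that carry 1 of these symbols. The rows were read by site, by position class and as a sum per gene, and the rule itself used no measured value. Of the 10 genes, 8 had at least 1 start site, and together they held 61 of the 42207 alternative start sites (ASSs) in the table, which named 9838 genes. Gapdh (chromosome 6, 125161852 to 125166467) and Eno3 (chromosome 11, 70653125 to 70662513) had 0 sites under their symbols and 0 sites of any symbol overlapping their spans, so both are counted as not detected. Lack of a site is not read here as lack of expression. The lowest site total was 10 reads, and how reads shared by near-identical copies were handled was not described for these libraries.

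The libraries came from gastrocnemius muscle of adult mice, about 8 weeks of age by the study's methods. The group labelled KO was AMPKα2-/- on C57BL/6, a knockout carried by the whole animal in which the DNA for part of the catalytic domain of AMPKα2 was removed, and the group labelled WT was its wild-type control. Each group had 2 libraries from 1 animal each, and the sources named no drug, diet or transgene for either group. Prkaa2 encodes AMPKα2, 1 of the alternative catalytic chains of AMPK, the kinase by which cells respond to falling ATP. The question read from the design is whether the level or the use of start sites differed between the genotypes.

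Glycolysis splits glucose into pyruvate in a chain of enzyme steps that yields ATP without oxygen, and lactate dehydrogenase then turns pyruvate into lactate. Fast muscle fibres hold these enzymes in large amounts, and muscle uses its own forms of several of them, such as PFKM, PGAM2 and ENO3. AMPK is known to promote glucose uptake and energy-yielding pathways when ATP runs low.

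In whole transcriptome start site sequencing (WTSS-seq), ribosomal RNA is removed and the remaining RNA is copied with template switching at the 5′ end and sequenced from that end, so the first base of a read gives the 5′ end of an RNA molecule, whether whole or broken. The libraries held 2900279 (KO replicate 1), 2303294 (KO replicate 2), 1300069 (WT replicate 1) and 1568945 (WT replicate 2) reads. The glycolytic enzyme genes took 3174, 3117, 1489 and 2891 of them, which was 1094, 1353, 1145 and 1843 ppm of the library. A count of 3 reads, taken as the floor for a single site, was 1.03 to 2.31 ppm, and this floor covers counting error only because copies made by PCR were not told apart. The sum over the 19 Prkaa2 sites was 149 and 183 normalized reads in KO against 153 and 186 in WT, a sum that includes sites outside the deleted part and therefore does not check the labels. The 10 skeletal muscle markers all had sites, including Acta1, Ckm and Ttn. With bulk RNA, fewer cells of a type and less RNA per cell cannot be told apart.

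The sites were described first by where they lay in their genes. Of the 61 sites, 22 were contained in an exon (class code c), 10 ran from an exon into an intron (e), 4 had another exonic overlap (o), 24 lay in an intron (i) and 1 lay just outside a gene (p). Sites of code e made up 16.4% of the member sites and took 41.7% of their reads, whereas over all nuclear genes, with mitochondrial genes and the 5 sites of code = (full matches) left out, they made up 3.20% of sites and 7.56% of reads. Intronic sites made up 39.3% of the member sites but 6.32% of their reads, against 52.1% of sites and 33.7% of reads over all nuclear genes. These shares are descriptions, since sites of the same gene share its transcripts. Member sites were also wider, with a median of 27 bp against 13 bp for all sites, at similar depth (median of 21 against 19 reads over the 4 libraries).

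The 8 genes differed in this respect. Ldha had 98.3% of its reads at code c and Pkm had 79.2%, so most reads of both began within exons. Pfkm had 84.3% of its reads at code e, and Pgam2 was split between code c (53.0%) and code e (46.5%). Pgk1 had intronic sites alone, and Gpi1 had 54.6% of its reads in introns.

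**Figure D1:**
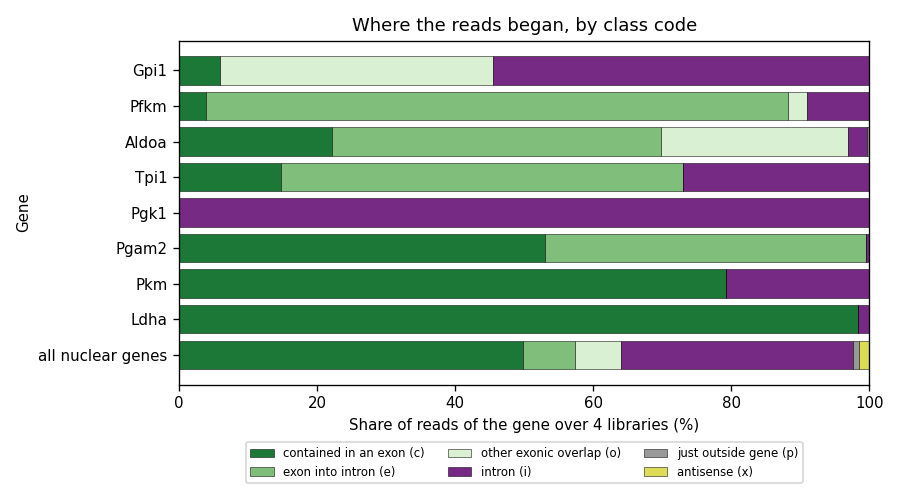
The bars show the share of reads, in percent over the 4 libraries, that began in each position class for the 8 glycolytic enzyme genes with sites and for all nuclear genes together. Ldha is almost wholly exonic with 98.3% at code c, Pfkm is dominated by exon-to-intron sites with 84.3%, and Pgk1 is wholly intronic.

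Reads often began far from the 5′ edge of the gene. Over the members, 21.8% of reads fell in the first 25% of the gene span and 50.1% in the last 25%. These shares were not computed over all genes. Annotated starts can lie inside the span, and the Pfkm site at such a start lay 48.9% of the way along it. Every Ldha read lay in the last 25%, as did 73.1% of Tpi1 and 63.3% of Pkm reads. Pgam2 had 53.0% of its reads in the first 25% and 36.9% in the last 25%. A site near the end of a gene can mark the end of an RNA fragment as well as a start of transcription, and the reads do not tell these apart.

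Some sites did lie at annotated starts. A window from 250 bases before to 50 bases after a RefSeq start was used for every gene with such a window, in the build GRCm38. Of the 61 member sites, 5 (8.20%) lay in a window, in 4 of 8 genes (Aldoa with 2 sites, Pfkm, Gpi1 and Pkm), and they held 13.5% of the member reads. Over all 6824 genes with both a site and a window, 2.85% of sites, 12.1% of genes and 9.53% of reads were in a window.

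The 3 windows with most reads at their site are printed. Their sites held 25.3% (upstream) and 16.1% (downstream) of Aldoa reads and 2.74% of Pfkm reads. The other reads of both genes began elsewhere. Sequence is from RefSeq (GRCm38.p6), 5′ to 3′ on the strand of the gene, and capitals mark the deposited site.
Aldoa, upstream start, chr7:126800398-126800697, minus strand: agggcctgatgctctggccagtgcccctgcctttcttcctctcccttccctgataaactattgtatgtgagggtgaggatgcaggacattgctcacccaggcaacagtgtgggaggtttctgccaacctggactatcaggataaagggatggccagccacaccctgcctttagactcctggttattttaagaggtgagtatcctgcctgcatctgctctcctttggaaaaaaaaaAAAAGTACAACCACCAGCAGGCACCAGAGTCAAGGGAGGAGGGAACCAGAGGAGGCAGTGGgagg
Aldoa, downstream start, chr7:126799129-126799428, minus strand: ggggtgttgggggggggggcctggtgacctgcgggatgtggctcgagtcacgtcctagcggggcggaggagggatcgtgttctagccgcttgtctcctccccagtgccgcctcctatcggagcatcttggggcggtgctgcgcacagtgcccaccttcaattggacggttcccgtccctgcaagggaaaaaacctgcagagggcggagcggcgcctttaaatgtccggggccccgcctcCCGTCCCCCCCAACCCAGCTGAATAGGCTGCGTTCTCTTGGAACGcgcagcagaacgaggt
Pfkm, chr15:98111810-98112109, plus strand: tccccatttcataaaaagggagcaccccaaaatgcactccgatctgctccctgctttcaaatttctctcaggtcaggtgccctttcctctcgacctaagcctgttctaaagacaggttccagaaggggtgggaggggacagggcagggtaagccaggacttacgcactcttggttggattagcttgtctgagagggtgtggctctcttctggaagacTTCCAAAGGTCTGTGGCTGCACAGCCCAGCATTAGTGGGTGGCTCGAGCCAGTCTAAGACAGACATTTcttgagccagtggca
The 61 bases in capitals in the upstream Aldoa window have their main position 32 bp after the annotated start and overlap the exon without being contained in it (code o). The 45 bases in the downstream Aldoa window have theirs 27 bp after a second annotated start (code c), and the 68 bases in Pfkm have theirs 7 bp after a start inside the gene span (code o).

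Motifs were searched on both strands of the 17 windows of the members and of all 32851 windows. TATAAA, the core of the TATA box, was in 0 of 17 member windows and in 13.6% of all windows. CANNTG, the E-box that reads alike on both strands and is known as the site of the muscle factors of the MyoD family, was in 14 of 17 member windows and in 72.3% of all windows, including all 5 windows that held a site. GGGCGG, the GC box, was in 7 of 17 member windows and in 35.7% of all windows. It was in the downstream Aldoa window, where it began at -50, -121 and -190 relative to the start, and in neither the upstream Aldoa window nor the Pfkm window printed above. In the 5 windows with a site, the motifs did not overlap each other. A match is a run of letters, and binding was not measured here.

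The sums per gene were then compared between genotypes, in pathway order. Values are normalized reads, the counts divided by the size factor of each library. They were not divided by transcript length, so levels are compared between libraries and not between genes. Across all genes, 2.67% of the 4688 tested passed an adjusted p of 0.1 by DESeq2 and 0.883% of the 6115 tested by edgeR. None of the 8 glycolytic enzyme genes passed by either tool, and 0 of 8 had an unadjusted p under 0.05 by either tool. With 2 libraries per group, the intervals given below are wide.

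Gpi1, whose enzyme turns glucose phosphate into fructose phosphate, had 55.6 and 61.2 normalized reads in KO and 18.2 and 54.8 in WT. Both KO libraries lay above both WT libraries, by little in the case of WT replicate 2. Of all genes tested, 22.0% had both KO libraries above both WT libraries, and Gpi1 was the 1 member of 8 that did. Its log2 fold change was 0.67 (SE 0.78, 95% interval -0.85 to 2.19, DESeq2 adjusted p = 0.931), and it was 0.09 without WT replicate 1 and 1.65 without WT replicate 2.

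Pfkm encodes muscle phosphofructokinase, which carries out the committed step. It had 313 and 579 normalized reads in KO against 404 and 543 in WT, so the WT values lay between the KO values. The log2 fold change was -0.09 (SE 0.48, 95% interval -1.02 to 0.85, DESeq2 adjusted p = 0.992).

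Aldoa encodes aldolase A, which splits fructose bisphosphate, and held 3278 reads over the 4 libraries. It had 611 and 899 normalized reads in KO against 335 and 1257 in WT. The means were 755 ± 203 and 796 ± 652 (SD, n = 2 each), and the WT libraries lay on either side of both KO libraries. The log2 fold change was -0.08 (SE 0.57, 95% interval -1.19 to 1.04, DESeq2 adjusted p = 0.992), and it ran from -0.73 to 1.14 when 1 library at a time was left out, being lowest without WT replicate 1 and highest without WT replicate 2.

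Tpi1 encodes triose phosphate isomerase, which interconverts both products of aldolase. It had 59.3 and 97.0 normalized reads in KO and 82.7 and 116 in WT, with overlapping groups, and the log2 fold change was -0.35 (SE 0.61, 95% interval -1.54 to 0.84, DESeq2 adjusted p = 0.966).

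Pgk1, the X-linked gene of phosphoglycerate kinase, carries out the first ATP-yielding step. It had 11.6 and 13.1 normalized reads in KO against 85.5 and 6.23 in WT. The WT libraries stood on opposite sides of the KO libraries, and the mean difference rests on WT replicate 1 alone. The log2 fold change was -1.89 (SE 1.09, 95% interval -4.03 to 0.25, DESeq2 adjusted p = 0.645), and without WT replicate 1 it was 0.99. Of its 100 reads, 59 came from a 2 bp intronic site (chromosome X, 106188181 to 106188182) in WT replicate 1, where the other libraries had 4, 11 and 0 reads.

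Pgam2 encodes the muscle form of phosphoglycerate mutase, which moves the phosphate within phosphoglycerate. It had 453 and 454 normalized reads in KO against 586 and 793 in WT, and both KO libraries lay below both WT libraries. It was the 1 member of 8 with that order, against 19.4% of all genes tested. The means were 453 ± 0.639 and 690 ± 147 (SD, n = 2 each), and the log2 fold change was -0.61 (SE 0.43, 95% interval -1.44 to 0.23, DESeq2 adjusted p = 0.774).

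Pkm encodes the pyruvate kinase of muscle, the last step to pyruvate. It had 48.9 and 49.8 normalized reads in KO against 63.1 and 48.6 in WT, and 3 of the 4 libraries lay close together, at a fitted log2 fold change of -0.18 (SE 0.68, 95% interval -1.52 to 1.16, DESeq2 adjusted p = 0.992).

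Ldha encodes the lactate dehydrogenase subunit that prevails in fast muscle. It had 387 and 571 normalized reads in KO against 513 and 782 in WT, and the groups overlapped. On the log2 scale KO over WT was -0.44 (SE 0.46, 95% interval -1.33 to 0.46, DESeq2 adjusted p = 0.919).

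**Figure D2:**
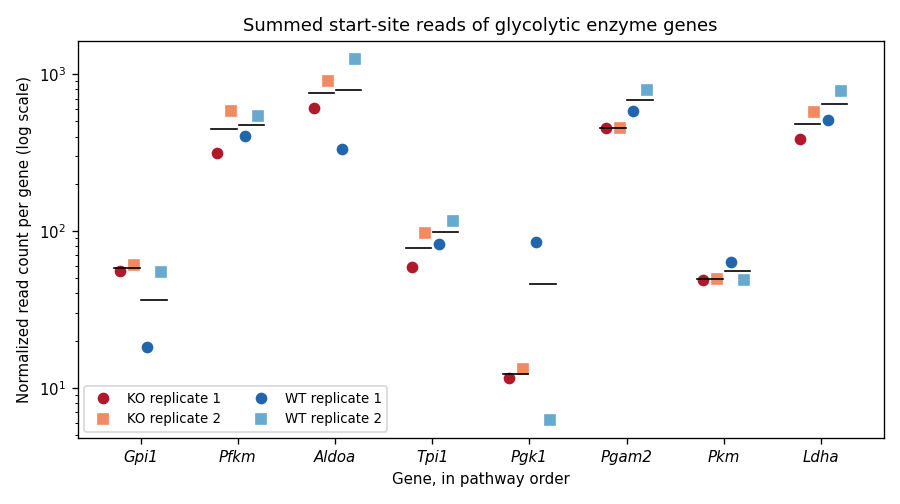
Points show the normalized read count per gene (log axis) in each of the 4 libraries for the 8 glycolytic enzyme genes with sites, and black lines show the means of the 2 libraries of a genotype. KO replicate 2 lies above KO replicate 1 for every gene shown, though only barely for Pgam2 and Pkm. The genotypes are separated only for Gpi1 (KO above) and Pgam2 (KO below).

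Taking the 8 genes as a list, the median log2 fold change was -0.26 and 1 of 8 had a positive fold change (12.5%), whereas the median over all genes tested was 0.01 and 50.5% were positive. No gene of the list passed the test on its own, so this is a description of the list and not a change in it. The libraries within a genotype also differed mostly in 1 direction. KO replicate 2 was above KO replicate 1 in 8 of 8 members (52.0% of all genes tested), and WT replicate 2 was above WT replicate 1 in 6 of 8 (49.3% of all genes tested). In KO, Pgam2 (453 and 454) and Pkm (48.9 and 49.8) were nearly tied, so their order depends on the size factors. The list median moved to -0.59 without KO replicate 2 and to -0.09 without KO replicate 1.

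Sites were read one by one as well. Of the 61 member sites, 22 had enough reads to be tested, 0 were called by DESeq2 and 0 by edgeR, and 1 had an unadjusted p under 0.05 by DESeq2, as did 1070 of all 11112 sites tested. Of all sites, 3.21% of the 11112 tested were called by DESeq2 and 0.712% of the 11242 tested by edgeR. The median log2 fold change was -0.19 over the 22 member sites, with 6 above 0 (27.3%), against 0.10 and 53.5% over all sites tested. Both KO libraries lay below both WT libraries at 6 of the 22 sites (17.4% of all sites tested) and above them at 1 (23.0% of all sites tested). The 6 sites with KO below all belonged to Pgam2 or Aldoa. Sites of the same gene share its transcripts, so this count does not describe separate members.

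Ldha had a single strong site of 328 bp in exonic sequence near the end of the gene (chromosome 7, 46855214 to 46855541). It held 622 and 642 reads in KO and 361 and 617 in WT, before normalization. Its share of Ldha reads was 98.2% to 98.6% in the 4 libraries, so the gene sum and this site carried the same information.

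Pgam2 began at 3 main sites on chromosome 11. The strongest was an exonic site 223 bp after the annotated start (5803349 to 5803732), with 375 and 301 reads in KO and 209 and 342 in WT. A site of code e near the end of the gene (5801727 to 5801871) had 298 and 167 reads against 175 and 214, and another of code e (5803068 to 5803199) had 59 and 49 against 34 and 81. After normalization all 3 had both KO libraries below both WT libraries, with log2 fold changes of -0.42 (SE 0.59), -0.51 (SE 0.61) and -0.79 (SE 0.82), each with a DESeq2 adjusted p of 1.00. The shares of all 3 sites overlapped between genotypes, and the one near the end of the gene held 40.2% and 32.2% of Pgam2 reads in KO and 41.9% and 33.6% in WT.

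Aldoa differed among libraries in where its reads began. Its strongest site, of code e near the end of the gene (chromosome 7, 126795664 to 126795828), had 379 and 405 reads in KO but 3 and 422 in WT. The site at the upstream start printed above (126800402 to 126800462) had 247 and 314 reads in KO and 0 and 269 in WT. WT replicate 1 was therefore at or under the floor of 3 reads at both sites. After normalization the other 3 libraries had 249, 350 and 487 at the first site and 162, 271 and 311 at the second, in each case highest in WT replicate 2. A weaker exonic site between these (126800093 to 126800109) showed the same order, with 28 and 29 reads in KO and 0 and 27 in WT.

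The site at the downstream start printed above (126799145 to 126799189) did not share that gap, with 166 and 147 reads in KO and 118 and 98 in WT. Its normalized values of 109, 127, 160 and 113 overlapped between genotypes, and log2 KO over WT was -0.21 (SE 0.66; adjusted p by DESeq2 1.00). A site of code e close to the end of the gene (126795402 to 126795561) had 76 and 71 reads in KO and 69 and 91 in WT, with normalized values of 49.9 and 61.3 below 93.6 and 105 (log2 fold change -0.84, SE 0.73, DESeq2 adjusted p = 0.974).

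The 2 strong sites missing from WT replicate 1 held 62.5% and 69.9% of Aldoa reads in KO and 1.26% and 68.5% in WT. The other 15 Aldoa sites summed to 229 and 271 normalized reads in KO (250 ± 29.6) and to 331 and 396 in WT (363 ± 46.0; SD, n = 2 each). The wide spread of the Aldoa sum in WT was thus that of these 2 sites, and over the other 15 sites both KO libraries lay below both WT libraries. That order was also seen in 19.4% of all genes tested. This split was chosen after the values were seen and was given no test.

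The Aldoa gap was present in 1 of the 2 WT libraries and in neither KO library. When WT replicate 2 was left out, so that WT rested on the library with the gap, both sites were called higher in KO (log2 fold changes 6.15 and 9.71, DESeq2 adjusted p = 4.06e-05 and 0.00211), the lone WT library being assumed to vary like the KO libraries. When WT replicate 1 was left out, they were -0.70 and -0.52. Such gaps were uncommon elsewhere: among sites with at least 30 ppm of reads in the other 3 libraries, 7 of 1179 had 3 reads or fewer in WT replicate 1, and 2 of the 7 were these Aldoa sites. The matching counts were 5 of 1167 in KO replicate 1, 0 of 1176 in KO replicate 2 and 1 of 1252 in WT replicate 2, at a threshold chosen after the values were seen. What made the gap was not tested.

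**Figure D3:**
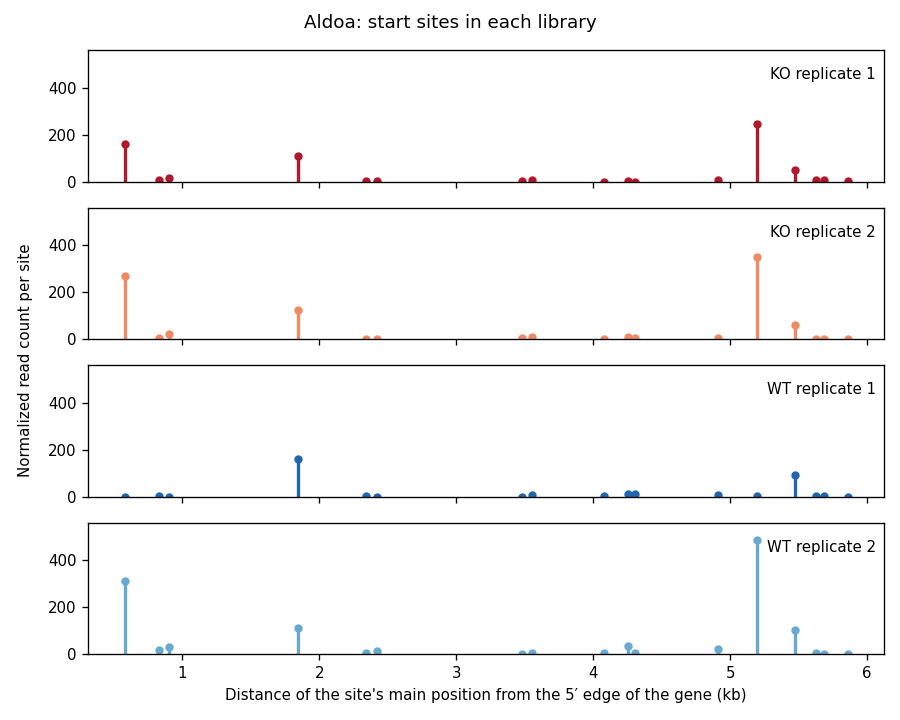
Each stem is the normalized read count of 1 Aldoa site, placed by the distance of its main position from the 5′ edge of the gene in kb, in each of the 4 libraries. The tall stems near the start and near the end of the gene are present in both KO libraries and in WT replicate 2 and missing in WT replicate 1, whereas the site at the downstream start stands between 109 and 160 in all 4 libraries.

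Pfkm had 13 sites on chromosome 15, with 64.3% of its reads at 1 site of code e (98121143 to 98121268), which had 299 and 420 reads in KO and 245 and 258 in WT. After normalization it had 196 and 362 in KO against 332 and 298 in WT, with overlapping groups (log2 fold change -0.18, SE 0.62). A neighbouring site of code e (98120774 to 98120946) had 109 and 103 reads in KO and 9 and 130 in WT. It held 3.13% of Pfkm reads in WT replicate 1 and 15.5% to 29.8% in the other 3 libraries, so WT replicate 1 again stood apart, here above the floor. The site at the start printed above (98112027 to 98112094) was weak, with 13 and 19 reads in KO and 11 and 9 in WT. Its normalized values of 8.53 and 16.4 in KO and 14.9 and 10.4 in WT overlapped (log2 fold change -0.02, SE 1.35).

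The 1 member site with an unadjusted p under 0.05 was a 3 bp intronic site of Pfkm (98116633 to 98116635). It had 39 and 78 reads in KO against 5 and 5 in WT, or 25.6 and 67.3 against 6.79 and 5.78 after normalization, so both KO libraries lay well above both WT libraries. The log2 fold change was 2.89 (SE 1.12, DESeq2 adjusted p = 0.206, edgeR adjusted p = 0.246), and it stayed between 2.01 and 3.46 when 1 library at a time was left out. It did not pass the threshold, and it held 7.62% and 11.8% of Pfkm reads in KO and 1.74% and 1.15% in WT. It was named after its values were seen. A site on the strand opposite to Pfkm (98124658 to 98124662) had 7 and 6 reads in KO against 0 and 0 in WT and was too weak to be tested.

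**Figure D4:**
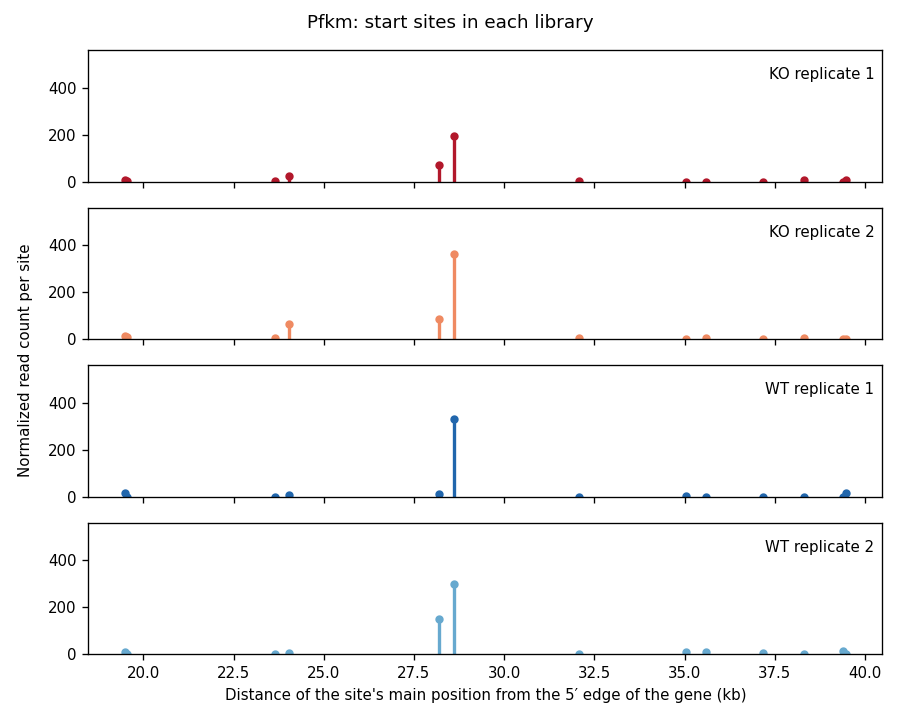
Each stem is the normalized read count of 1 Pfkm site, placed by the distance of its main position from the 5′ edge of the gene in kb, in each of the 4 libraries. One site of code e leads in every library, and the intronic site 60.3% of the way along the gene span is higher in the KO libraries (25.6 and 67.3) than in the WT libraries (6.79 and 5.78).

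The remaining genes had weak sites. The leading Tpi1 site (chromosome 6, 124811377 to 124811400, code e) had 70 and 44 reads in KO against 28 and 68 in WT, and the Tpi1 site closest to the annotated start, an intronic one (124813079 to 124813148), had 5 and 42 against 17 and 8. The leading Gpi1 site (chromosome 7, 34202412 to 34202558, code o) had 24 and 37 reads in KO against 4 and 21 in WT, and its site at the annotated start (34230289 to 34230325) had 1 and 8 against 2 and 2. The leading Pkm site (chromosome 9, 59678730 to 59678751, code c) had 45 and 19 reads in KO against 24 and 12 in WT, and its site at the annotated start (59656548 to 59656573) had 5 and 6 against 2 and 4. After normalization, at each of these 6 sites the gap between libraries of 1 genotype exceeded the difference between the genotype means.

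Use of start sites, the share of a site among the reads of its gene, was tested with diffSpliceDGE of edgeR in 6 member genes with at least 2 sites of enough depth. It was called in 0 of 6, and 0 of 6 had an unadjusted p under 0.05, against 1.37% called of all 2184 genes tested. The smallest adjusted p among the members was 0.837, for Pfkm, where the intronic site described above had the largest shift relative to the rest of the gene (1.99 on the log2 scale, unadjusted p for the site 0.0237). Aldoa, with an adjusted p of 1.00, was called when WT replicate 2 was left out. Ldha and Pgk1 could not be tested, since each had fewer than 2 sites that passed the depth filter.

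Copies of the enzymes elsewhere in the genome bear on these counts, since a read from near-identical sequence can be placed at either copy. Aldoart1, a processed copy of Aldoa on chromosome 4, had 171 and 172 reads in KO and 133 and 233 in WT at 5 exonic sites. Tpi-rs11, a Tpi1 copy on chromosome 6, had 128 and 201 reads in KO and 127 and 228 in WT at 1 site, 684 in all against 360 for Tpi1 itself. After normalization both copies had both KO libraries below both WT libraries, as did 19.4% of all genes tested. Their log2 fold changes were -0.91 (SE 0.52, DESeq2 adjusted p = 0.638) and -0.87 (SE 0.57, DESeq2 adjusted p = 0.730). Aldoart2 on chromosome 12 had 73 reads in all, Tpi-rs10 on chromosome 18 had 33 and Ldha-ps2 on chromosome 4 had 24. The values of Aldoa, Tpi1 and Ldha are uncertain for this reason. Copies were found by name alone, so these reads do not bound the uncertainty. WT replicate 1 had its reads at Aldoart1 while it lacked those at the 2 strong Aldoa sites, and whether these are linked was not tested.

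The rest of the pathway was read from a list of 46 other genes for hexokinases, isoforms of the enzymes above, regulators, transporters and the pyruvate dehydrogenase complex. A site was present for 24 of them and 15 were tested, and 0 were called higher and 0 lower in KO. Their median log2 fold change was -0.07, 7 of 15 were positive, and 2, Pdk4 and Adpgk, had an unadjusted p under 0.05, as did 458 of all 4688 genes tested. The 6 with most normalized reads are described here.

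Slc16a1, a lactate and pyruvate carrier of the cell membrane, had 1128 and 842 normalized reads in KO and 962 and 683 in WT, with overlapping groups (log2 fold change 0.26, SE 0.43, DESeq2 adjusted p = 0.961). Pdk4, a kinase that switches off pyruvate dehydrogenase, had 311 and 350 in KO and 478 and 1094 in WT. Both KO libraries lay below both WT libraries, as in 19.4% of all genes tested, and the log2 fold change was -1.25 (SE 0.49, DESeq2 adjusted p = 0.237). Pdk4 was called when WT replicate 1 was left out (log2 fold change -1.73, DESeq2 adjusted p = 0.0913) and in no other setting tried, and without WT replicate 2 it was -0.56 (DESeq2 adjusted p = 1.00).

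Pdhb, a subunit of pyruvate dehydrogenase, had 236 and 292 normalized reads in KO against 199 and 376 in WT, and Dlat, the transacetylase of the same complex, had 167 and 219 against 149 and 311. Mpc2, a part of the mitochondrial pyruvate carrier, had 150 and 308 against 94.0 and 361. In all 3 the KO values lay between the WT values, with WT replicate 1 lowest. Pfkfb3, which makes an activator of phosphofructokinase, had 86.7 and 99.6 in KO against WT values of 91.1 and 210 (log2 fold change -0.70, SE 0.59, DESeq2 adjusted p = 0.883). Adpgk, a glucokinase that uses ADP, was the other gene with an unadjusted p under 0.05 and is named after its values were seen. It had 95.3 and 60.3 normalized reads in KO against WT values of 37.9 and 12.5 (log2 fold change 1.64, SE 0.78, DESeq2 adjusted p = 0.448).

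**Figure D5:**
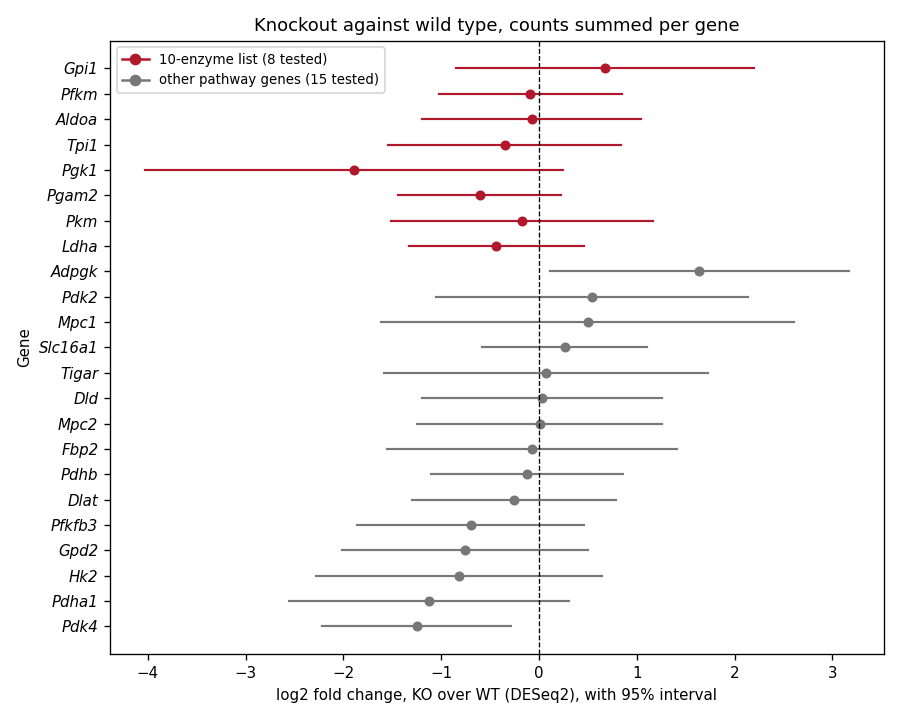
Points show the log2 fold change, KO over WT, of counts summed per gene by DESeq2, and bars show the 95% interval, for the 8 glycolytic enzyme genes tested (red) and the 15 other pathway genes tested (grey). Of the 23 intervals, those of the 8 enzyme genes all include 0, and those of Adpgk (above 0) and Pdk4 (below 0) do not, although neither gene passed the adjusted threshold.

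The same order of replicates as in the enzymes was seen in the other pathway genes, with KO replicate 2 above KO replicate 1 in 11 of 15 (73.3%) and WT replicate 2 above WT replicate 1 in 13 of 15 (86.7%). It was seen as well in the summed muscle markers, which had 65405 and 76074 normalized reads in KO against 59869 and 83380 in WT, and in the 11 fast fibre markers with 36125 and 47625 against 33815 and 55674. These lists are not separate, since Myh1, Myh4, Mylpf, Tnnt3 and Pvalb were in both. Slow fibre markers, of which 7 of 8 had sites and Myl2 had none, summed to 1145 and 1654 against 534 and 1242. Of the 6 slow fibre genes tested, 5 were higher in KO (median log2 fold change 0.64) and 0 were called. Of the 11 fast fibre genes tested, 2 were higher in KO (median log2 fold change -0.06) and 0 were called. Adipocyte markers went the other way within each genotype, with 5908 and 2989 in KO and 5874 and 3313 in WT (6 of 8 genes with a site, Cidec and Retn without).

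Between genotypes, fibroblast markers summed to 3305 and 3195 in KO against 4745 and 4545 in WT (9 of 10 genes with a site, 0 of 8 tested with a positive fold change and 1 called), and immune markers summed to 79.4 and 90.0 against 321 and 202 (5 of 6 genes with a site). Endothelial markers summed to 297 and 324 against 266 and 254. Blood (2 of 5 genes with a site) and Schwann cell markers (2 of 6) had low sums, at 16.2 to 28.1 and 8.72 to 40.2 normalized reads. The part of these cell types in the values of the enzyme genes was not tested.

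The mean profile of the 8 enzyme genes over the 4 libraries, in log2 normalized reads centred on the mean of each gene, was -0.29 and 0.09 in KO and 0.01 and 0.18 in WT. Each gene had equal weight, including Pgk1 with its 100 reads. Pgk1 had 85.5 normalized reads in WT replicate 1 and 6.23 in WT replicate 2, against 11.6 and 13.1 in KO. The profile and its closest genes were not computed without Pgk1. Among 260 other genes with a mean of at least 500 normalized reads, the closest profiles by Euclidean distance over 4 libraries were those of TrnP (0.12), Smyd1 (0.16), Malat1 (0.17), Snapin (0.18) and ND5 (0.18). TrnP and ND5 are mitochondrial genes and Malat1 is a nuclear non-coding RNA. With 4 libraries such a distance is a description only.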

How the data were processed

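WTSS-seq read counts of mouse muscle were used from 1 deposited table, with 2 KO and 2 WT libraries. The authors mapped reads to the mouse genome (GRCm38.p5 per the labels), clustered read ends into sites and gave each site a gene and a Cuffcompare class code. Mapping and clustering settings were described for the 3′ end libraries and not separately for these, so reads shared by near-identical copies may have been placed at either. The deposited counts are raw, 1 line of totals was left out, and the lowest site total was 10 reads (median 19.0), a minimum that favours sites of the deeper libraries. Library depths and floors are given in the report.

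Sites, and counts summed per symbol, were fitted over the whole table with DESeq2 1.42.0 (median of ratios, two-sided Wald test, Benjamini-Hochberg adjusted p under 0.1, as in the study's methods). Its independent filtering kept mean normalized counts above 8.76 for sites and 16.5 for genes. The quasi-likelihood test of edgeR 4.0.16 (TMM, filterByExpr) and diffSpliceDGE with the Simes method were run beside it (R 4.3.3, Python 3.11.15). The scripts were tested on simulated data. Intervals are 95% normal intervals of the log2 fold change. The members, gene lists, tests and alternatives were chosen with earlier results of these data known. Named items were all members, for each gene its strongest site and the site nearest to an annotated start, called sites, and the 6 other pathway genes with most normalized reads. Profile likeness used a pseudocount of 0.5. Further sites and genes were chosen after their values were seen, as said where they appear.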

Additional observations from a re-analysis of the deposited data

How the results depend on the processing

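Alternatives were the edgeR test, TMM factors, library totals, no independent filtering, a minimum of 40 reads, an adjusted p of 0.05, exonic sense sites or primary chromosomes alone, the gene-level F test for use, the replicate number as a block, and leaving out 1 library at a time. The calls among the 8 member genes stayed at 0 under all of them, and of 111 member gene fold changes under an alternative, 102 kept their sign and side of the threshold and 9 changed sign without being called. With the replicate block, the calls for member genes, member sites, other pathway genes and use stayed at 0 as well. The sample labels tie same-numbered libraries of the 2 pairs by the number alone. The correlation of their deviations from the group means was 0.061 over 11242 sites, and whether they shared a batch was not tested.

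Leaving out 1 library gave 0 to 2 called member sites, 0 to 1 called other pathway genes and 0 to 1 called genes for use. The 2 sites (Aldoa) and the gene for use (Aldoa) were called without WT replicate 2, and the pathway gene (Pdk4) without WT replicate 1. Some signs changed in other settings, never with a call, and the cause was not tested. Aldoa was 0.26 over exonic sense sites, 0.19 with the replicate block and 0.17 with the edgeR block (added after seeing the data). Over exonic sense sites, Pfkfb3 was 0.11, Pdhb 0.15 and Dlat 0.026. Mpc2 was -0.026 with edgeR and -0.037 with the 40-read minimum. The Pfkm sites at 98112067 and 98120787 were 0.0036 and 0.050 with TMM factors. With the block, the Pfkm site at 98120787 was 0.82 (0.70 in edgeR), the Tpi1 site at 124813108 was -0.38 (-0.35 in edgeR) and the Pkm site at 59678748 was 0.046.

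The log2 fold changes that changed sign when 1 library was left out ran from -0.73 to 1.14 for Aldoa, -0.59 to 0.30 for Pfkm, -0.38 to 0.023 for Pkm, -2.82 to 0.99 for Pgk1, -0.66 to 1.25 for Mpc2, -0.51 to 0.38 for Pdhb, -1.18 to 0.0015 for Pfkfb3 and -0.69 to 0.35 for Dlat. For sites, they ran from -0.59 to 0.41 at Pfkm 98112067, -0.90 to 2.67 at Pfkm 98120787, -0.70 to 0.23 at Pfkm 98121203, -2.31 to 1.20 at Tpi1 124813108, -0.90 to 0.091 at Tpi1 124811395, -0.70 to 6.15 at Aldoa 126795798, -0.49 to 0.061 at Aldoa 126799151, -0.52 to 9.71 at Aldoa 126800415, -0.56 to 0.73 at Pkm 59678748, -0.023 to 2.09 at Gpi1 34202440 and -3.94 to 4.84 at Pgk1 106188182. Those that kept their sign ran from 0.091 to 1.65 for Gpi1, -0.74 to -0.025 for Tpi1, -0.81 to -0.40 for Pgam2, -0.74 to -0.13 for Ldha, 0.0062 to 0.53 for Slc16a1 and -1.73 to -0.56 for Pdk4. The depth limits the weak genes most: Gpi1, Pkm and Pgk1 had 218, 221 and 100 reads over all 4 libraries.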
